A study of Mus musculus with 9 samples.

Results

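The genes described here are the ligands and receptors of the 4 classical axon guidance systems, the semaphorins with their neuropilin and plexin receptors, the Slits with the Robo receptors, the netrins with Dcc and the Unc5 receptors, and the ephrins with the Eph receptors. They were matched by symbol, with earlier results of these data known, and 70 of the 48709 genes in the count files carried such a symbol. All 70 had at least 1 count, and 65 of them were among the 17361 genes that passed the filter on low counts and were tested. Efna4, Epha2, Ephb4, Robo4 and Sema3g did not pass it, and none of them exceeded 0.647 CPM (counts scaled to a common library size) in any mouse.

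RNA was sequenced from NeuN-positive nuclei that had been sorted from the frozen hippocampus of 6-month-old mice. The 3 groups were WT C57BL/6J mice given tap water (WT vehicle, n = 3), homozygous Tg4-42 mice given tap water (Tg4-42 vehicle, n = 3) and homozygous Tg4-42 mice given caffeine at 300 mg/l in the drinking water for 4 months from 2 months of age (Tg4-42 caffeine, n = 3). Tg4-42 mice are on the same C57BL/6J background and express human Aβ4-42, joined to the signal peptide of murine thyrotropin-releasing hormone, from the murine Thy1 promoter, so the peptide is made mainly in neurons. The sample labels state a treatment only for the caffeine group and describe the genotype as APP Transgenic, and no WT mice given caffeine were among the 9 libraries. The study used both sexes, its methods describe the freezing of dissected hippocampi for male Tg4-42 mice, and the labels give no sex.

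Guidance cues are secreted or membrane-bound proteins that attract or repel growing axons through receptors on the growth cone, where they steer the actin and microtubule skeleton. Class 3 semaphorins are secreted and bind neuropilins, which signal through A-type plexins, whereas Sema3e binds Plxnd1 directly. Slits repel through Robo receptors, netrin-1 attracts through Dcc and repels through Unc5 receptors, and ephrins on the surface of a cell bind Eph receptor tyrosine kinases on its neighbour. In the adult hippocampus many of these proteins remain at synapses, where they act on dendritic spines, transmission and the wiring of newborn granule cells.

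Library totals lay between 9342945 and 16376922 counts, so that 3 counts correspond to 0.190 to 0.325 CPM, which bounds counting error alone. Replicates of a group correlated at 0.978 to 0.985 over log CPM. The sorted nuclei showed the neuronal markers Snap25 and Rbfox3 (which encodes NeuN) in every mouse whereas 0 of 4 endothelial markers passed the filter, which summed to 0.649 to 1.29 CPM. The series text speaks of hippocampal CA neurons, but dentate granule cell markers such as Prox1 (79.2 ± 12.03 CPM in WT vehicle mice, SD, n = 3) were present in all libraries. As the libraries are bulk samples, fewer cells of a type and less RNA per cell cannot be told apart.

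Between caffeine-treated and vehicle-treated Tg4-42 mice, Sema3e and Sema3c, both secreted class 3 semaphorins, fell with caffeine and passed the test. They lie on mouse chromosome 5, Sema3e at chr5:14025276-14256689 and Sema3c at chr5:17574281-17730268 (GRCm38, both on the plus strand), and the exon models of neither share bases with another gene. The 300 bases around the RefSeq start of each gene (GRCm38.p6, plus strand, 250 bases before the start and 50 after it) are shown because these were the only members that passed the test, and because they moved together.
Sema3e, chr5:14025026-14025325: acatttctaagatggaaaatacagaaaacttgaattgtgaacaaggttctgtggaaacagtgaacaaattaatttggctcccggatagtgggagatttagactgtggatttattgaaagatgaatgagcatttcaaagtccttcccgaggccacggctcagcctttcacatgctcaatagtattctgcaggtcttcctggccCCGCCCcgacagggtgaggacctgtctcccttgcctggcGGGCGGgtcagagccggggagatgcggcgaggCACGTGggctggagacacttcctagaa
Sema3c, chr5:17574566-17574865: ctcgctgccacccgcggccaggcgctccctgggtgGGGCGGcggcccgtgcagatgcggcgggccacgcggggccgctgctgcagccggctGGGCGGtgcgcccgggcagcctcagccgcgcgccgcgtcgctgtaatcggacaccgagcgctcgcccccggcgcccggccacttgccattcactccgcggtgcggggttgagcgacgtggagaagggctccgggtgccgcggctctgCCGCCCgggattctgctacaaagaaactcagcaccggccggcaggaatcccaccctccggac
Capitals mark matches on either strand to the GC box GGGCGG and the E-box CACGTG, which do not overlap. Both promoters hold the GC box, which is found in 35.7% of all 32851 promoters of this length, and that of Sema3e also holds an E-box near its downstream end, found in 7.15%. Neither holds the cAMP response element TGACGTCA (1.79% of promoters) or the TATA box TATAAA (13.6%). The GC content was 50.7% for Sema3e and 75.7% for Sema3c. These matches are descriptions of the windows.

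Sema3e, a repellent ligand of Plxnd1, was the most abundant class 3 semaphorin per exon length. It stood at 109, 111 and 91.6 CPM in the WT vehicle mice, at 118, 113 and 111 CPM in the Tg4-42 vehicle mice and at 80.6, 75.02 and 69.4 CPM in the Tg4-42 caffeine mice. All 3 caffeine mice lay below all 6 vehicle mice. Within the Tg4-42 genotype its log2 fold change for caffeine against vehicle was -0.60 (SE 0.118, edgeR quasi-likelihood test, adjusted p = 0.0399).

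Sema3c, which acts through neuropilins and can attract as well as repel, stood at 34.3, 40.0 and 34.8 CPM in WT vehicle mice, at 39.7, 38.1 and 45.6 CPM in Tg4-42 vehicle mice and at 29.7, 26.1 and 24.1 CPM in caffeine mice. Again no caffeine mouse reached the lowest vehicle mouse of either genotype. Its log2 fold change was -0.63 (SE 0.138, edgeR quasi-likelihood test, adjusted p = 0.0470). For both genes the exact two-sided permutation test gave p = 0.1, the smallest that 3 mice against 3 allow.

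Both calls lay close to the threshold and depended on single mice. Calls over all genes moved too, from 153 to 9 with the lane as covariate. They ranged from 0 to 341 with 1 mouse left out. With the sequencing lane as a covariate the adjusted p was 0.0554 for Sema3e and 0.0689 for Sema3c, at the same fold changes. When each mouse was left out in turn, the fold change of Sema3e stayed between -0.66 and -0.55 but the call held for 2 of 6 mice (adjusted p 0.0295 to 0.278, lost without caffeine replicates 2 or 3 or vehicle replicates 1 or 3), and that of Sema3c stayed between -0.71 and -0.53 and held only without caffeine replicate 1 (adjusted p 0.0354 to 0.304). On lane 6, which held 2 mice of each group, the log2 ratio of caffeine to vehicle was -0.56 for Sema3e and -0.47 for Sema3c. On lane 7, with 1 mouse of each group, it was -0.67 and -0.91. For several other members the ratio was much larger on lane 7 than on lane 6, at -3.24 and -0.76 for Sema3a, -1.31 and -0.32 for Sema3f, -1.20 and -0.30 for Sema6a, and -1.12 and -0.30 for Sema4a. The same held for Robo3 at 1.68 and 0.29 and for Plxna4 at 1.04 and 0.22.

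**Figure D1:**
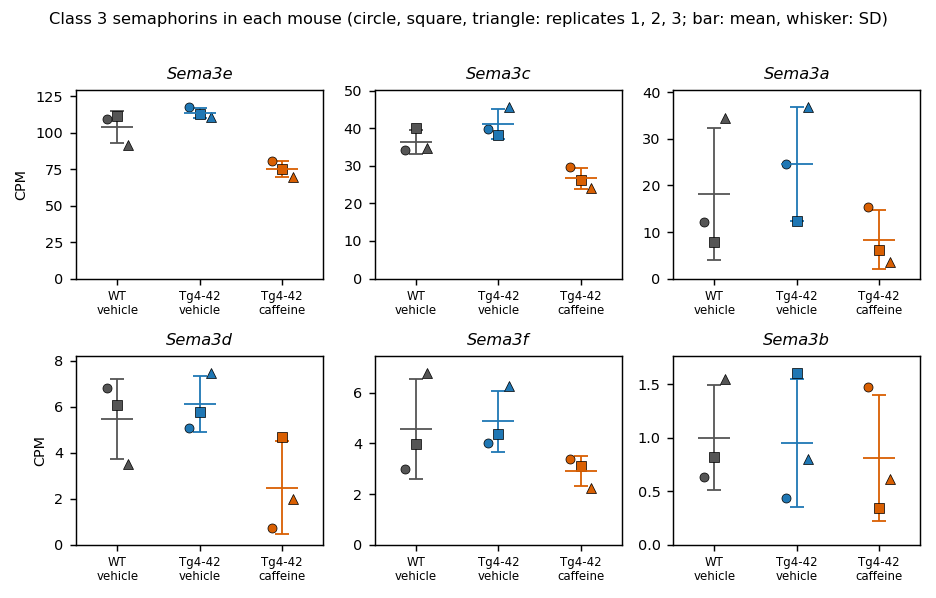
CPM of the 6 tested class 3 semaphorins in each mouse, with replicates as circle, square and triangle, group means as bars and SD as whiskers. Caffeine mice sit below every vehicle mouse for Sema3e and Sema3c, whereas the Sema3a values of Tg4-42 vehicle mice spread from 12.4 to 36.9 CPM.

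The other 4 tested class 3 semaphorins also had log2 fold changes below 0 between caffeine and vehicle, and none passed the test. Sema3d, a ligand of neuropilins, stood at 5.09, 5.78 and 7.47 CPM in Tg4-42 vehicle mice and at 0.735, 4.70 and 1.999 CPM in caffeine mice (log2 fold change -1.29, SE 0.469, adjusted p = 0.188). These groups did not overlap, but the caffeine mice were spread widely and overlapped with WT vehicle mice (6.83, 6.06 and 3.49 CPM). Without caffeine replicate 2 the gene was called (-2.16, adjusted p = 0.0453). Sema3f, the repellent ligand of Nrp2, stood at 4.00, 4.36 and 6.26 CPM against 3.38, 3.11 and 2.23 CPM (log2 fold change -0.75, SE 0.321, adjusted p = 0.253), again without overlap. Its WT vehicle mice, at 2.98, 3.98 and 6.79 CPM, overlapped with the caffeine mice.

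Sema3a, the prototype repellent that binds Nrp1, varied widely between mice of the same group. It stood at 12.2, 7.96 and 34.4 CPM in WT vehicle mice, at 24.7, 12.4 and 36.9 CPM in Tg4-42 vehicle mice and at 15.4, 6.08 and 3.46 CPM in caffeine mice. The groups overlapped, and its log2 fold change of -1.56 (SE 0.783, adjusted p = 0.378) did not exceed this spread. Sema3b ranged from 0.346 to 1.60 CPM, and its log2 fold change was -0.30 (SE 0.586). Summed over the 7 class 3 genes, the level was 131, 116 and 102 CPM in caffeine mice, against 192, 176 and 208 CPM in Tg4-42 vehicle and 166, 170 and 173 CPM in WT vehicle mice, a sum that is mainly Sema3e.

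Sema3a, Sema3c, Sema3d and Sema3e lie within the same stretch of chromosome 5 (chr5:12383385-17730268). Of the 24 tested genes in it, 13 had a fold change below 0 with caffeine and 3 were called. Most of the 24 were gene models with Gm symbols, many of them within the bounds of Pclo, Cacna2d1 or a semaphorin gene. The 24 are thus not all separate neighbours, and whether reads of the surrounding genes entered these models was not tested. Over all tested genes 51.5% lay below 0 and 0.881% were called. The outermost of the 4 semaphorins set the bounds of the stretch. All 4 are among the 13, and Sema3e and Sema3c are among the 3. The third called gene, chosen here after its values were seen, was Hgf (log2 fold change -1.23, adjusted p = 0.0469), which encodes hepatocyte growth factor, whereas the neighbours Pclo (0.21, adjusted p = 0.375) and Cacna2d1 (0.02, adjusted p = 0.963) did not pass the test.

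The receptors of these ligands did not pass the test. Nrp1, which binds Sema3a and was the most abundant receptor of the system per exon length, had a log2 fold change of 0.01 (SE 0.132) with mean levels of 458 ± 54.9 CPM in Tg4-42 vehicle and 461 ± 48.1 CPM in caffeine mice (SD, n = 3). Plxnd1, the receptor of Sema3e, stood at 11.04, 8.15 and 13.3 CPM in Tg4-42 vehicle mice and at 10.8, 6.08 and 4.61 CPM in caffeine mice, and the groups overlapped (log2 fold change -0.59, SE 0.317, adjusted p = 0.367). Among the A-type plexins, which carry the signal of neuropilins, Plxna1 (0.12), Plxna2 (-0.18) and Plxna3 (-0.18) had log2 fold changes near 0 with SE of 0.117 to 0.181.

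Plxna4, an A-type plexin that serves both Sema3a and Sema6a, stood at 200, 192 and 135 CPM in Tg4-42 vehicle mice, at 158, 193 and 146 CPM in WT vehicle mice and at 216, 241 and 279 CPM in caffeine mice. The caffeine mice lay above all vehicle mice. The log2 fold change was 0.48 against Tg4-42 vehicle (SE 0.159, adjusted p = 0.142) and 0.56 against WT vehicle (SE 0.159, adjusted p = 0.114), so it did not pass the test in either comparison. An antisense gene, Plxna4os3, shares 110 of its 14103 exon bases, and reads of the 2 genes could not be told apart within those shared bases.

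Over all 65 tested members, 2 were called between caffeine and vehicle in Tg4-42 mice, or 3.08%, against 0.881% of all tested genes. DESeq2 called 3 (4.62% of the 65), against 5.04% of the 14682 genes that kept an adjusted p in DESeq2. At an unadjusted p under 0.05, 13 members were lower with caffeine (20.0%, against 9.82% of all genes) and 6 were higher (9.23%, against 7.15%). The groups did not overlap for 16 members that were lower (24.6%, against 12.6%) and 3 that were higher (4.62%, against 10.4%). The median log2 fold change of the members was -0.05, beside -0.01 over all genes, with 36 members below 0 (55.4%, against 51.5%) and 29 above. As members were picked by name with earlier results known, these shares are given as a description.

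**Figure D2:**
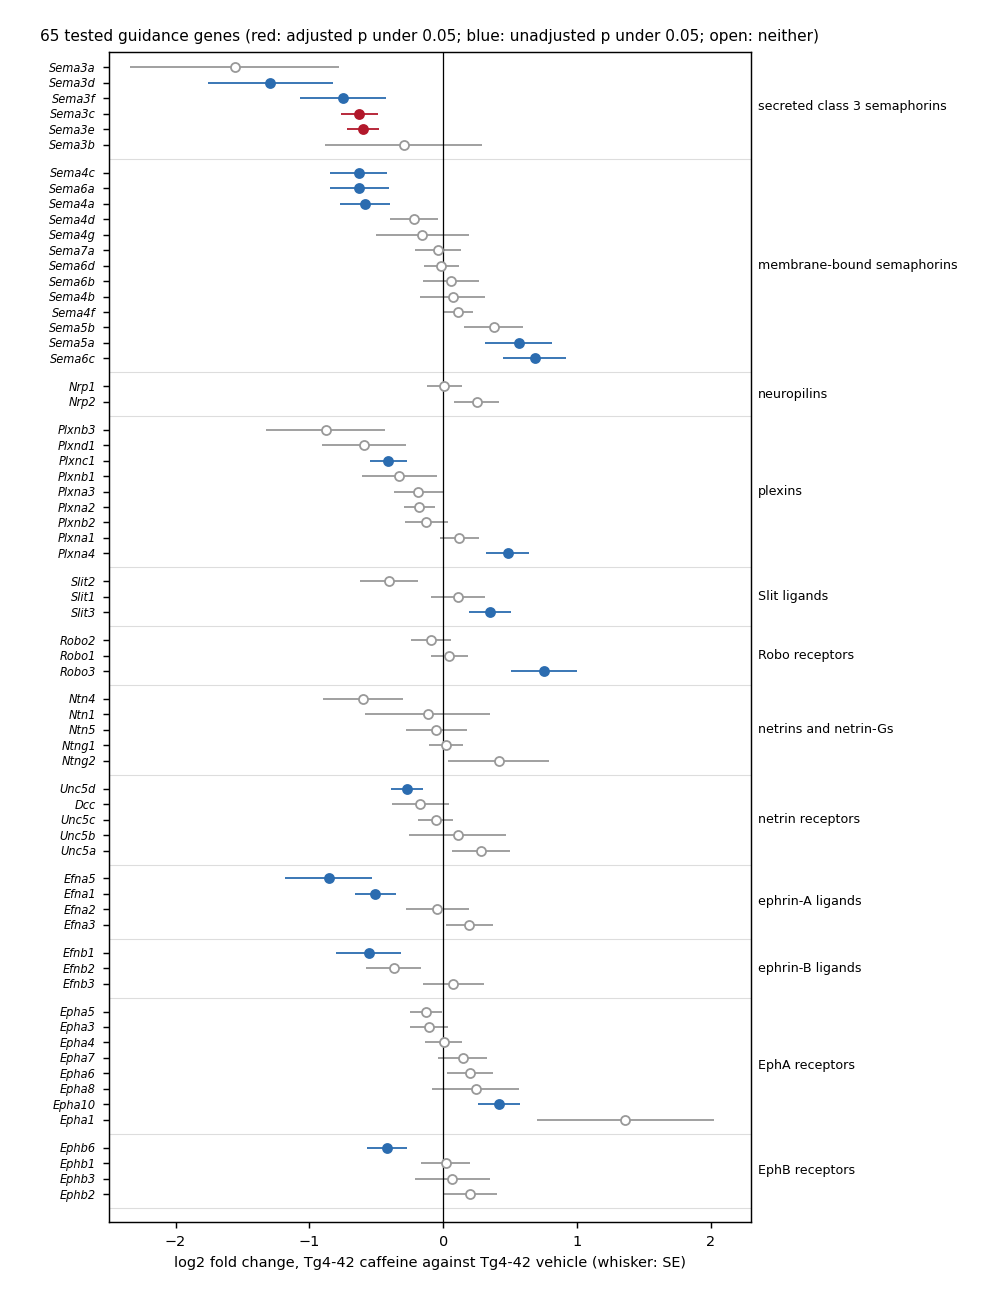
log2 fold change of caffeine-treated against vehicle-treated Tg4-42 mice for the 65 tested members by class, with SE as whiskers. All 6 class 3 semaphorins lie between -1.56 and -0.30, only Sema3e and Sema3c (red) have an adjusted p under 0.05, and 17 others (blue) have an unadjusted p under 0.05.

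The 13 membrane-bound semaphorins moved in both directions, with 7 below 0 and 6 above, and none passed the test. Sema4a stood at 57.7, 58.8 and 77.4 CPM in Tg4-42 vehicle mice and at 49.6, 44.6 and 35.3 CPM in caffeine mice (log2 fold change -0.58, SE 0.189, adjusted p = 0.138). Sema4c, a ligand of Plxnb2, stood at 11.9, 16.8 and 14.7 CPM against 10.2, 8.78 and 9.15 CPM (-0.63, SE 0.214, adjusted p = 0.150), although 334 of its 4593 exon bases are shared with a gene on the other strand. Neither of these group pairs overlapped, but WT vehicle mice overlapped with caffeine mice for both genes. They stood at 49.5, 49.7 and 78.2 CPM for Sema4a and at 9.96, 16.0 and 16.6 CPM for Sema4c.

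Sema6a, which binds Plxna2 and Plxna4, stood at 20.6, 18.1 and 27.6 CPM in Tg4-42 vehicle and at 16.3, 14.8 and 11.8 CPM in caffeine mice, without overlap (log2 fold change -0.63, SE 0.220, adjusted p = 0.166). Its WT vehicle mice, at 22.1, 14.0 and 23.9 CPM, overlapped with the caffeine mice. Sema6c went the other way, at 6.93, 14.3 and 9.64 CPM in Tg4-42 vehicle against 13.5, 18.4 and 18.3 CPM in caffeine mice, with an overlap of 1 vehicle mouse (0.68, SE 0.235, adjusted p = 0.155). Sema5a, a transmembrane semaphorin known to limit synapse formation on granule cells, stood at 155, 153 and 76.3 CPM against 213, 153 and 202 CPM (0.56, SE 0.251, adjusted p = 0.286). Its groups overlapped, as caffeine replicate 2 was level with vehicle replicates 1 and 2.

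Plxnc1, the receptor of Sema7a, stood at 53.0, 47.0 and 58.5 CPM in Tg4-42 vehicle mice, at 57.7, 53.9 and 50.1 CPM in WT vehicle mice and at 36.9, 46.7 and 35.6 CPM in caffeine mice. The highest caffeine mouse lay just below the lowest vehicle mouse (log2 fold change -0.41, SE 0.138, adjusted p = 0.148). Sema7a itself had a log2 fold change of -0.04 (SE 0.171).

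**Figure D3:**
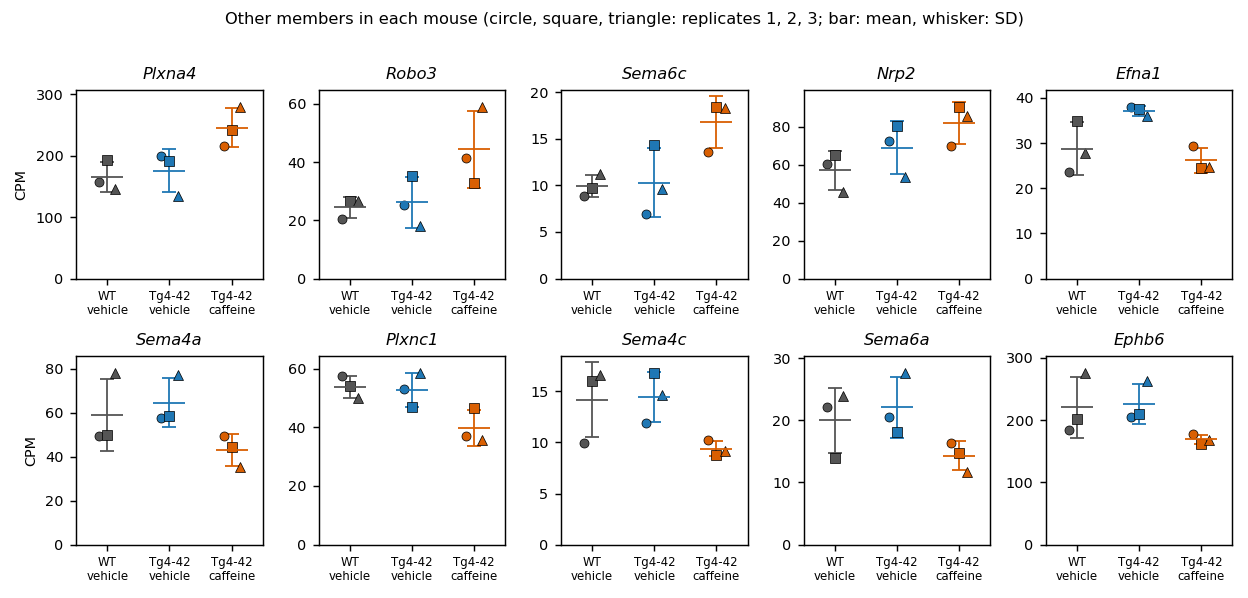
CPM in each mouse for 10 further members with an unadjusted p under 0.05 in a comparison with caffeine, drawn as for the class 3 semaphorins. Plxna4 is higher in all caffeine mice than in all vehicle mice, Sema4c is at 8.78 to 10.2 CPM in caffeine mice, and vehicle replicate 3 (triangle) is the lowest Tg4-42 vehicle mouse for Plxna4, Robo3 and Nrp2.

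Among the Slits and their receptors, Slit1 and Robo2 were the most abundant per exon length. Robo3, a divergent Robo receptor of commissural axons, stood at 25.1, 35.3 and 18.1 CPM in Tg4-42 vehicle mice, at 20.4, 26.6 and 26.6 CPM in WT vehicle mice and at 41.2, 32.8 and 58.9 CPM in caffeine mice. It overlapped with Tg4-42 vehicle but not with WT vehicle. Its log2 fold change was 0.75 (SE 0.244, adjusted p = 0.143) against Tg4-42 vehicle and 0.85 (SE 0.243, adjusted p = 0.127) against WT vehicle. DESeq2 called it in both comparisons, and edgeR against Tg4-42 vehicle when vehicle replicate 2 was left out (1.05, adjusted p = 0.0494), where the fold change ranged from 0.50 to 1.05 over the mice left out.

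Robo1 and Robo2, the main Slit receptors, had log2 fold changes of 0.05 (SE 0.135) and -0.09 (SE 0.151) with caffeine in Tg4-42 mice. Of their ligands, Slit3 stood at 53.9, 59.2 and 50.5 CPM in Tg4-42 vehicle and at 52.3, 73.9 and 82.2 CPM in caffeine mice (0.35, SE 0.159, adjusted p = 0.280), with overlap. Slit1 (0.11, SE 0.201) and Slit2 (-0.41, SE 0.216) did not pass the test either.

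The netrin system showed no call. Ntn1, the classical netrin, was near the floor in every mouse (0.632 to 1.55 CPM), whereas its receptors Dcc (67.3 to 135 CPM), Unc5a, Unc5c and Unc5d were well detected. With caffeine in Tg4-42 mice the log2 fold change was -0.17 (SE 0.212) for Dcc, 0.28 (SE 0.216) for Unc5a, 0.11 (SE 0.359) for Unc5b and -0.06 (SE 0.133) for Unc5c. The netrin-Gs are membrane-anchored relatives that bind partners on dendrites instead of Dcc, and Ntng1 (0.02, SE 0.130) and Ntng2 (0.41, SE 0.380) did not pass the test.

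Unc5d, a dependence receptor that also binds Flrt2, had an unadjusted p under 0.05 both between genotypes and with caffeine. It stood at 64.8, 67.3 and 75.1 CPM in WT vehicle mice, at 78.5, 83.7 and 92.5 CPM in Tg4-42 vehicle mice and at 72.8, 74.7 and 63.7 CPM in caffeine mice. The Tg4-42 vehicle mice lay above all others. The log2 fold change was 0.30 between genotypes (SE 0.120, adjusted p = 1) and -0.27 with caffeine (SE 0.120, adjusted p = 0.268), and the comparisons share the Tg4-42 vehicle mice.

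Efna1, a membrane-anchored ligand of EphA receptors, was likewise highest in the Tg4-42 vehicle mice. It stood at 23.5, 35.0 and 27.9 CPM in WT vehicle mice, at 38.0, 37.6 and 35.9 CPM in Tg4-42 vehicle mice and at 29.4, 24.5 and 24.6 CPM in caffeine mice. The log2 fold change was 0.37 between genotypes (SE 0.155, adjusted p = 1) and -0.51 with caffeine (SE 0.156, adjusted p = 0.120). Neither passed the test.

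Of the other ephrins, Efna5 stood at 29.6, 20.2 and 31.5 CPM in Tg4-42 vehicle and at 18.9, 17.6 and 8.15 CPM in caffeine mice (log2 fold change -0.86, SE 0.323, adjusted p = 0.209). Efnb1 stood at 14.8, 14.7 and 17.8 CPM against 9.63, 10.03 and 12.5 CPM (-0.56, SE 0.243, adjusted p = 0.258). For both the groups did not overlap, but they did not pass the test. Efnb2 (-0.37, SE 0.205), Efnb3 (0.08, SE 0.230) and Efna3 (0.20, SE 0.177) had smaller differences, where 344 of 2434 exon bases of Efna3 are shared with a gene on the other strand.

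Eph receptors held the first 3 places among the members by level per exon length. Epha7 had the highest level of all members at 114 CPM per kilobase of exon (mean of 9 mice, SD 19.9), followed by Epha4 at 60.7 (SD 5.70) and the kinase-dead Ephb6 at 54.4 (SD 10.6). The 9 mice of Epha7 lay above those of Epha4, whereas the ranges of Epha4 and Ephb6 overlapped, as did those of Ephb6 and Nrp1 at 46.2 (SD 4.23). Next came Epha6 at 42.1, Efnb3 at 34.6, Unc5a at 25.4, Slit1 at 25.2, Robo2 at 22.7, Epha5 at 22.5, Efna3 at 20.3 and Ntng1 at 20.2 CPM per kilobase, where the ranges of neighbours in the order over the 9 mice overlapped. With caffeine the log2 fold change was 0.15 (SE 0.185) for Epha7, 0.00 (SE 0.135) for Epha4, 0.20 (SE 0.175) for Epha6 and -0.13 (SE 0.119) for Epha5.

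**Figure D4:**
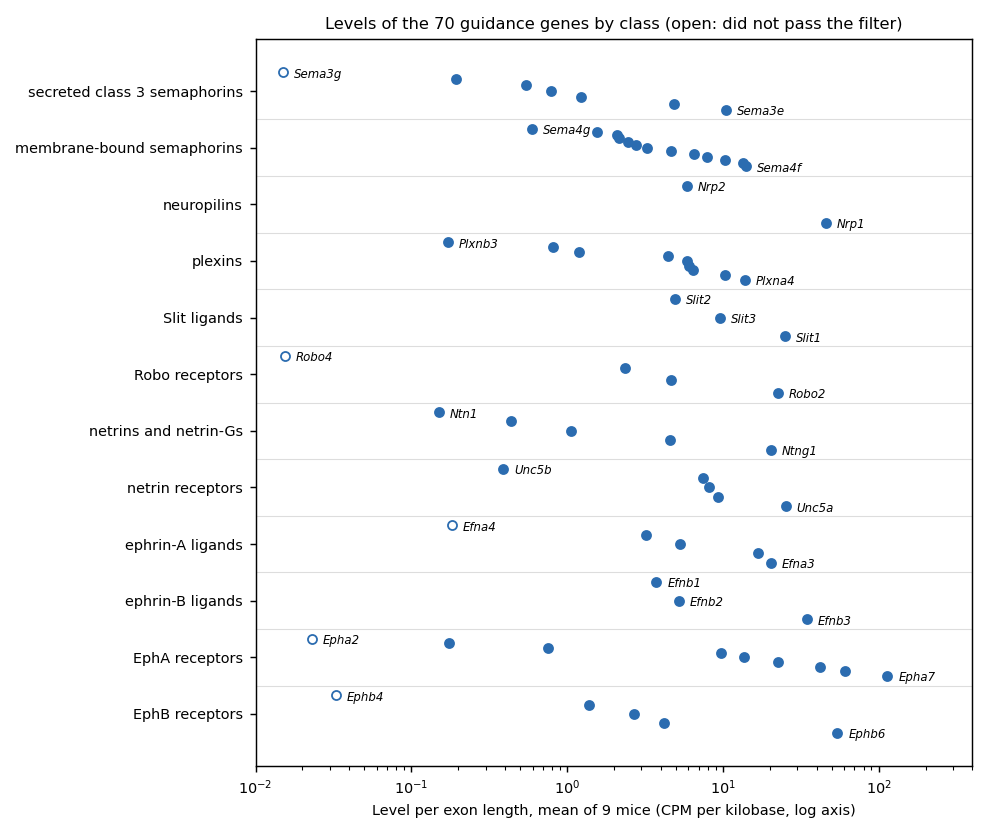
Mean level per exon length over 9 mice (CPM per kilobase, log axis) of the 70 members by class, with the lowest and highest member of each class named and the 5 members that did not pass the filter as open circles. Levels range from 0.0151 for Sema3g to 114 for Epha7.

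Ephb6 stood at 205, 210 and 262 CPM in Tg4-42 vehicle mice, at 184, 202 and 276 CPM in WT vehicle mice and at 177, 162 and 168 CPM in caffeine mice, below every vehicle mouse (log2 fold change -0.42 against Tg4-42 vehicle, SE 0.151, adjusted p = 0.178). Epha10, also kinase-dead, was at 58.3, 61.1 and 63.9 CPM in Tg4-42 vehicle and at 84.8, 74.3 and 85.8 CPM in caffeine mice (0.42, SE 0.160, adjusted p = 0.200), but WT vehicle replicate 3 at 87.7 CPM was higher still, and 79 of its exon bases are shared with a gene on the other strand. Ephb1 (0.02, SE 0.186) and Ephb2 (0.20, SE 0.203), receptors of B-type ephrins at synapses, did not pass the test.

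Between Tg4-42 and WT mice given vehicle, 0 of 65 members were called by edgeR, where 0.0979% of all tested genes were. DESeq2 called 0 members, and 0.101% of the 24837 genes that kept an adjusted p in DESeq2. At an unadjusted p under 0.05, 3 members were higher in Tg4-42 (4.62%, against 1.65% of all genes), namely Efna1, Unc5d and Plxnb3, and 1 was lower (1.54%, against 1.09%), the EphA receptor Epha8. Plxnb3, a B-type plexin, rested on 0.505 to 2.44 CPM (log2 fold change 1.14, SE 0.450, adjusted p = 1), and Epha8 on 1.73 to 6.21 CPM (-0.75, SE 0.319, adjusted p = 1). With 1 mouse left out these ranged from 0.75 to 1.67 and from -0.99 to -0.49. The groups did not overlap for 4 members that were higher (6.15%, against 3.57%) and 1 that was lower (1.54%, against 3.16%). The median log2 fold change was 0.07, beside 0.00 over all genes. Above 0 lay 49 of 65 members, and 24.6% lay below it, against 49.5% of all tested genes. The median ranged from 0.0185 to 0.1481 with 1 mouse left out. It did not exceed the spread of 0.088 of the member median between mice.

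Between caffeine-treated Tg4-42 mice and WT vehicle mice, 0 of 65 members were called by edgeR (0.415% of all tested genes). DESeq2 called 3 members, and 3.83% of the 14086 genes that kept an adjusted p in DESeq2. At an unadjusted p under 0.05, 8 members were lower (12.3%, against 8.65%) and 6 higher (9.23%, against 6.78%). The groups did not overlap for 4 members that were lower (6.15%, against 9.67%) and 6 that were higher (9.23%, against 9.14%). Sema3e had a log2 fold change of -0.47 (SE 0.118, adjusted p = 0.0825) and Sema3c of -0.45 (SE 0.138, adjusted p = 0.141), both without overlap.

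Nrp2, the co-receptor of Sema3f, stood at 60.3, 65.2 and 45.7 CPM in WT vehicle mice, at 72.7, 80.7 and 53.6 CPM in Tg4-42 vehicle mice and at 69.7, 90.5 and 86.0 CPM in caffeine mice (log2 fold change 0.52 against WT vehicle, SE 0.168, adjusted p = 0.154, and 0.25 against Tg4-42 vehicle, SE 0.167). Other members with an unadjusted p under 0.05 against WT vehicle included Sema6c (0.75), Slit3 (0.43), Plxnc1 (-0.44), Sema4c (-0.60) and Ephb6 (-0.38), with adjusted p from 0.146 to 0.243. None passed the test, and with 1 mouse left out the fold change of Ephb6 ranged from -0.50 to -0.19.

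Beyond the 70 members, 2 lists of pathway genes were examined. The list of co-receptors and other cues held 16 genes, of which 15 were tested and 13 had a log2 fold change below 0 with caffeine in Tg4-42 mice (median -0.33), 8 of them at an unadjusted p under 0.05, none higher at this threshold, and 2 called. Over all genes 51.5% lay below 0, 9.82% were lower at this threshold and 0.881% were called. The list was chosen with earlier results known. The called genes were Flrt3, a surface protein that binds Unc5 receptors, and Lrrc4c, the dendritic partner of netrin-G1. Flrt3 stood at 376, 382 and 351 CPM in Tg4-42 vehicle and at 238, 266 and 202 CPM in caffeine mice (-0.65, SE 0.129, adjusted p = 0.0399). Lrrc4c stood at 354, 303 and 383 CPM against 246, 232 and 174 CPM (-0.68, SE 0.142, adjusted p = 0.0428). For both, all caffeine mice lay below all vehicle mice, WT included.

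Their binding partners among the members, Ntng1 and the Unc5 receptors, did not pass the test, as given above. The next 3 genes of this list by p were the adhesion molecules Cntn4 (-0.88, adjusted p = 0.0860), L1cam (-0.49, adjusted p = 0.106) and Flrt2 (-0.43, adjusted p = 0.170). The second list held 48 intracellular effectors of guidance receptors, such as collapsin response mediators and cytoskeletal kinases. All 48 were tested, 26 were above and 22 below 0 (median 0.05), 8 were higher and 1 lower at an unadjusted p under 0.05 (7.15% and 9.82% of all genes), and 0 were called by edgeR.

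Markers of cell types moved with caffeine in the same libraries. Over all tested genes, 51.5% lay below 0 against Tg4-42 vehicle and 0.881% were called by edgeR. The dentate granule cell markers summed to 1362 to 1674 CPM in caffeine mice, against 702 to 1215 in Tg4-42 vehicle and 880.5 to 1143 in WT vehicle mice, and 13 of 13 had a log2 fold change above 0 against Tg4-42 vehicle (3 called). The study had already named Dsp, Prox1 and Bcl11b of this list as raised by caffeine in these libraries. Their direction was therefore known when the list was made, and Bcl11b was among the 3 called. The 10 interneuron markers summed to 887 to 1066 CPM, against 1116 to 1668 and 1096 to 1196, with 9 of 10 below 0 (1 called), and the 9 markers of subiculum and neocortex to 164 to 220 CPM, against 254 to 323 and 242 to 278.5, with 8 of 9 below 0 (1 called). CA1 markers (532 to 761 CPM, against 714 to 875 and 656 to 1039, 8 of 9 below 0) and CA2 and CA3 markers (357 to 423 CPM, against 298 to 356 and 273 to 359, 8 of 9 above 0) had 0 calls by edgeR against Tg4-42 vehicle. At an unadjusted p under 0.05, 2 CA1 markers were lower and 1 higher, and 2 CA2 and CA3 markers were higher. Against WT vehicle, 1 CA1 marker was called lower with caffeine.

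Among glial markers, which the NeuN gate should leave out, log2 fold changes against Tg4-42 vehicle were mostly negative, with 7 of 7 tested oligodendrocyte markers, 5 of 6 astrocyte markers and 6 of 6 microglial markers below 0 and 0 called by edgeR (4, 4 and 2 lower at an unadjusted p under 0.05). They summed to 255 to 364, 135 to 192 and 37.7 to 46.5 CPM in caffeine mice and to 364 to 510, 206 to 247.5 and 46.8 to 70.3 CPM in Tg4-42 vehicle mice. In WT vehicle mice the sums were 327 to 483, 195 to 264 and 44.4 to 64.7 CPM, which overlapped with the caffeine mice for oligodendrocytes and microglia. The 3 markers of oligodendrocyte precursors overlapped between all groups, at 14.2 to 20.4 CPM in caffeine, 15.85 to 19.8 in Tg4-42 vehicle and 11.4 to 18.5 in WT vehicle mice, with 2 of 3 below 0, 0 called by edgeR and 0 at an unadjusted p under 0.05 against Tg4-42 vehicle. The 2 tested Cajal-Retzius markers went in opposite directions, with log2 fold changes of -0.66 for Reln (adjusted p = 0.0613) and 1.46 for the weakly detected Trp73 (adjusted p = 0.209), and their list, mostly Reln, summed to 40.6 to 44.4 CPM with caffeine, 52.9 to 77.5 CPM in Tg4-42 vehicle and 51.2 to 74.5 CPM in WT vehicle mice. Between genotypes, 0 markers of these lists were called by edgeR, and 3 had an unadjusted p under 0.05. The part of these shifts in the values of the guidance genes was not tested.

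**Figure D5:**
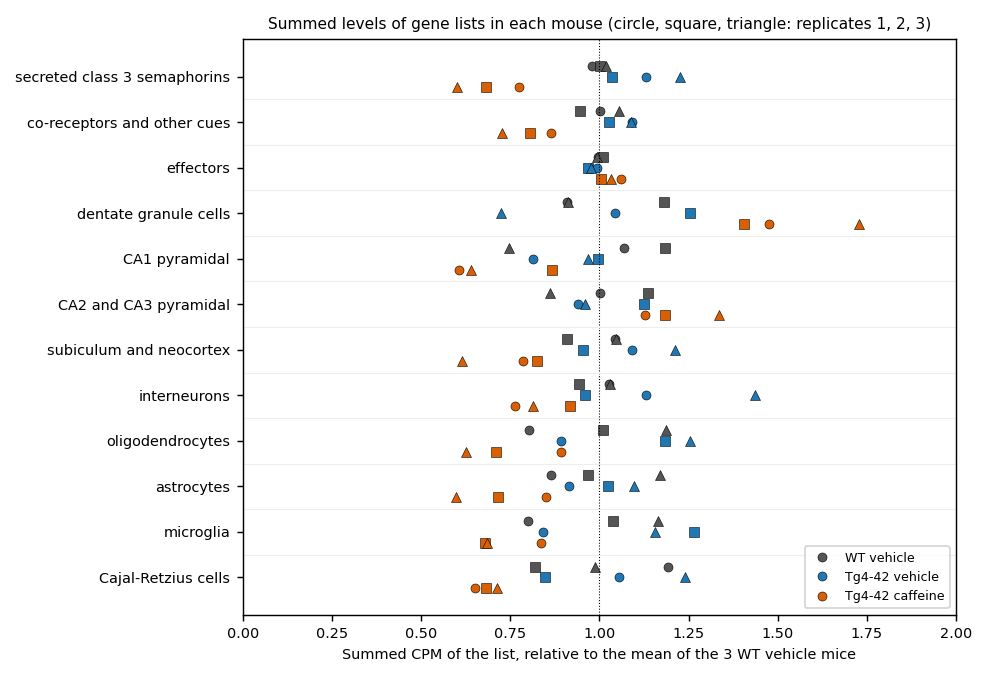
Summed CPM of gene lists in each mouse, divided by the mean of the 3 WT vehicle mice of the same list. Class 3 semaphorins (102 to 131 CPM with caffeine) and the co-receptors and other cues (1725 to 2048 CPM) are lower in all caffeine mice than in all vehicle mice. So are the summed markers of subiculum and neocortex, interneurons and astrocytes, while those of dentate granule cells are higher. The Cajal-Retzius sum is also lower, but it is mostly Reln, and the tested marker Trp73 went the other way.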

How the data were processed

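The authors sorted NeuN-stained hippocampal nuclei, prepared libraries with a low-input kit that does not mark strand, sequenced single-end reads of 50 bases, aligned them to mm10 with STAR and deposited raw featureCounts exon counts per gene (whole numbers, not normalized). Versions and the strand setting of that step are not given in the sources used here, and reads were not analysed here. The labels name 6 mice per group for nuclei isolation, whereas 3 libraries per group were deposited. Vehicle groups follow the genotype label and the study's design. Replicate numbers were given in accession order and do not mark paired mice, but replicates 1 and 2 of each group were run on lane 6 and replicate 3 on lane 7. The labels do not say how the mice of a group relate to each other, so p-values measure only the spread between these mice.

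Symbols, coordinates and exon lengths came from GENCODE release M21 (GRCm38), and 360 of 48709 identifiers had no symbol there. Exon lengths are the union of all annotated exons. Of the members, 17 share exon bases with another gene. Members were matched by symbol. Members and lists were chosen with earlier results of these data known.

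Counts were compared in R 4.3.3 with edgeR 4.0.16 (TMM scaling, filter with minimum count 10 and minimum total 15, robust quasi-likelihood fit of all 9 libraries), with Benjamini-Hochberg adjustment over the 17361 tested genes and a threshold of 0.05. Standard errors were derived from the F statistic. The script was tested on simulated data. Members named are those with an adjusted p under 0.05, the 10 smallest unadjusted p under 0.05 per comparison, the 12 highest per exon length, a set of textbook ligand and receptor pairs, and those that failed the filter. Other genes with values were chosen after those were seen. Single genes were also compared by exact two-sided permutation of log2(CPM + 0.5). The alternatives were DESeq2 1.42.0, RLE scaling, no filter, a mean of at least 50 counts, only the 2 groups compared, the lane (6 or 7, read from the file names) as covariate, the quasi-likelihood method of edgeR version 4, and each mouse left out in turn. Promoter windows came from RefSeq (GRCm38.p6), in which 5 of 7 class 3 semaphorins had an entry.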

Additional observations from a re-analysis of the deposited data

How the results depend on the processing

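Of the values of single members, 284 of 310 refits kept direction and side of the threshold, 15 newly passed it, 11 no longer did and 0 reversed. Of the 24 results refitted, only 2 were called in the main fit, those of Sema3e and Sema3c between caffeine and vehicle in Tg4-42 mice. Most refits thus kept their side by staying uncalled. The 11 losses were those of Sema3e (5 of 13 refits) and Sema3c (6 of 13 refits) given above. Between caffeine and vehicle in Tg4-42 mice, the 2 called members became 11 without a filter on low counts (Sema3a, Sema3d, Sema4a, Sema5a, Sema6a, Sema6c, Efna5, Plxna4 and Robo3 besides), where calls over all genes rose from 153 to 987, and 0 with the lane as covariate, where they fell to 9. DESeq2 called 3 members (740 genes). Leaving out 1 mouse gave 0 to 2 calls of members, beside 0 to 341 over all genes. Without caffeine replicate 3 or vehicle replicate 3 there were 0 calls over all genes. Without vehicle replicate 1 there were 3, with 0 members among them. Without caffeine replicate 2 the 1 member called was Sema3d (58 genes). Sema3e and Sema3c were called without caffeine replicate 1 (341 genes), and Sema3e and Robo3 without vehicle replicate 2 (190 genes). At an unadjusted p under 0.05, the 19 members became 27 without a filter and 9 to 23 with 1 mouse left out. There were 10 without caffeine replicate 3 and 9 without vehicle replicate 3. Against WT vehicle, the 0 calls in caffeine mice became 3 with DESeq2 and 8 without a filter, where calls over all genes rose from 72 to 540 and 860, and 14 members at an unadjusted p under 0.05 became 23 without a filter and 8 to 17 with 1 mouse left out, 8 without caffeine replicate 3. Between genotypes calls stayed at 0 under every alternative, and 4 members at an unadjusted p under 0.05 became 9 without a filter, 2 with a mean of at least 50 counts and 2 to 5 with 1 mouse left out, 2 without WT replicate 2 or Tg4-42 vehicle replicate 1. Medians of the members moved by less than 0.088, the spread between mice on the log2 scale. The cause of these changes was not tested. No paired analysis was possible because the labels carry no replicate numbers. With 3 mice per group, the depth limits members near the floor, such as Ntn1, Sema3b and Epha1.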
